A study of Mus musculus with 2 samples.

Results

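The Mir297, Mir466, Mir467 and Mir669 genes are rodent microRNA (miRNA) genes, most of which form a repeat array inside an intron of Sfmbt2. Members were the miRNA genes whose GENCODE M21 symbol starts with 1 of these names, which gave 81 of the 2202 miRNA genes counted. Of these, 71 lay in the Sfmbt2 intron on chromosome 2 and 10 lay elsewhere. Short RNA was sequenced from adrenal glands of male B6CASTF1/J mice aged 10 days, a cross of C57BL/6 with the wild-derived strain CAST/EiJ. The series held 1 group of 2 libraries, numbered as biological replicates 1 and 2, labelled as different males under a shared donor record. Whether a library pools glands is not stated. No treatment or second genotype was present, so levels are described within this group and replicate 2 is set against replicate 1. Reads assigned to a gene on its own strand numbered 2843734 in replicate 1 and 3080062 in replicate 2. Levels are these counts scaled to the library total (CPM), as mean ± SD over the 2 libraries, and were not divided by hairpin length.

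Sfmbt2 encodes a Polycomb group protein and is imprinted, with expression from the paternal allele best known in extraembryonic tissue. Its intronic miRNAs are processed from the host transcript and are known from the placenta and embryonic stem cells, and the array exists in mouse and rat but not in most other mammals. A miRNA pairs with target messages mainly through its seed, bases 2 to 8. MiR-466b has been reported by others to act on StAR, the protein that moves cholesterol into mitochondria for steroid synthesis in adrenal cells. Cortex cells make steroids from this cholesterol, and the medulla holds chromaffin cells.

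By the annotation on mm10, all 71 array members lay on the plus strand in an intron of Sfmbt2 (ENSMUSG00000061186.15) on that strand. It is intron 10 or 11, depending on the transcript, at chr2:10461473-10523944. The array ran from 10466663 to 10518279, a length of 51617 bp in an intron of 62472 bp. It held 5 Mir297, 23 Mir466, 14 Mir467 and 29 Mir669 genes. The order Mir467, Mir466, Mir669 occurred 11 times along it. Of 9 gaps between neighbouring Mir467a copies, 7 measured 2400 to 2500 bp from start to start, and the median was 2462 bp. By position, much of the array is thus a tandem repeat of miRNA triplets.

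RefSeq sequences on GRCm38.p6 were found for 9 members, all outside the array, and mature sequences for 8 of them. Of these, 4 are shown, the 3 whose seed letters were most frequent in the array hairpins and miR-467h, whose seed letters were the least frequent. Capitals mark the seed, and each line reads 5′ to 3′.
mmu-miR-466k (chr3:85467396-85467418, plus strand): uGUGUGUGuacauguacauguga
mmu-miR-466i-3p (chr13:17747552-17747573, plus strand): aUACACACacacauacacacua
mmu-miR-467g (chr5:34732872-34732892, minus strand): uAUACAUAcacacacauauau
mmu-miR-467h (chr9:115381898-115381919, plus strand): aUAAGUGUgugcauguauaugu
The 8 mature sequences had 8 different seeds, so no seed group formed among them. The letters of the miR-467g seed, AUACAUA, occurred on the own strand in 62 of 71 array hairpins (87.3%), against 143 of all 2202 hairpins (6.49%), a total that includes the array. Those of the miR-466i-3p seed, UACACAC, occurred in 46 array hairpins (64.8%) against 8.17% of all, and those of the miR-466k seed, GUGUGUG, in 43 (60.6%) against 9.54%. The miR-467h seed, UAAGUGU, was in 1 array hairpin. A match of 7 letters anywhere in a hairpin is a description and does not make it a mature seed. No array hairpin held any of the 8 mature sequences whole. The mature miR-467h sequence was also held by 2 hairpins that are no members by name, Gm26303 and Gm25510.

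The group as a whole held 3668 reads in replicate 1 and 4174 in replicate 2. This was 0.129% of assigned reads in replicate 1 (95% exact binomial interval 0.125 to 0.133) and 0.136% in replicate 2 (0.131 to 0.140), or 0.132% ± 0.0046 (SD, n = 2). Every one of these reads was assigned to the Sfmbt2 array. The 10 members elsewhere had 0 reads in both libraries. With 3 counts as the limit of a count of 0, their levels in assigned reads could reach 1.05 CPM in the first library and 0.974 CPM in the second. These limits and intervals cover counting error only and leave out reads that map to several places, which count for no gene. Within the array, 11 members had a read in either library, 8 reached 1 CPM in both, and 60 were listed at 0. No member had a read on the opposite strand, and each had the same count with and without regard to strand.

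Mir467 genes held most of the assigned reads. Reads mapping to several places count for no gene, so the order of members given here holds for assigned reads only. Mir467d (ENSMUSG00000077021.2, chr2:10507630-10507714) had 1835 reads or 645 CPM in replicate 1 and 2162 reads or 702 CPM in replicate 2. Its mean of 674 ± 40.1 CPM (SD, n = 2) placed it at rank 112 of the 2202 genes, of which 783 had a read in either library. It alone held 51.0% of the group's assigned reads. The genes next above it by mean were Mir16-1 (697 CPM), Mir296 (716 CPM) and Mir193b (720 CPM), and those next below were Mir1839 (647 CPM), Mir137 (611 CPM) and Mir18 (590 CPM). Mir467d lay between the values of Mir1839 in the single libraries, 346 and 948 CPM, so these ranks are not firm.

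Mir467e (ENSMUSG00000076948.2, chr2:10505721-10505807) starts 1909 bp upstream of Mir467d. It had 348 CPM in replicate 1 and 259 CPM in replicate 2, a mean of 304 ± 62.5 CPM (SD, n = 2) at rank 144. Mir467c (ENSMUSG00000077049.2, chr2:10473931-10474027), which lies near the other end of the array, had 67.2 and 50.3 CPM. The 3 genes together took 82.2% of the group's reads in replicate 1 and 74.7% in replicate 2. The other 14 Mir467 genes, among them all 10 copies of Mir467a, were listed at 0.

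Mir669 genes held nearly all of the other assigned reads. Mir669c (ENSMUSG00000076118.1, chr2:10509296-10509404) had 99.2 CPM in replicate 1 and 183 CPM in replicate 2, with a mean of 141 ± 59.4 CPM (SD, n = 2). Mir669o (ENSMUSG00000077086.1, chr2:10514300-10514395) had 97.8 and 107 CPM. Mir669c lay above Mir669o in both libraries, but by only 282 against 278 reads in replicate 1, and their ranges overlap. Mir669l (chr2:10468971-10469068) had 19.3 and 39.0 CPM, Mir669e (chr2:10467495-10467613) 7.74 and 7.47 CPM, and Mir669h (chr2:10518155-10518279) 2.81 and 6.17 CPM. The ranges of all other neighbours in the order Mir467d, Mir467e, Mir669c, Mir669o, Mir467c, Mir669l, Mir669e and Mir669h did not overlap. The remaining 25 Mir669 genes, with all 12 copies of Mir669a among them, were listed at 0.

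**Figure D1:**
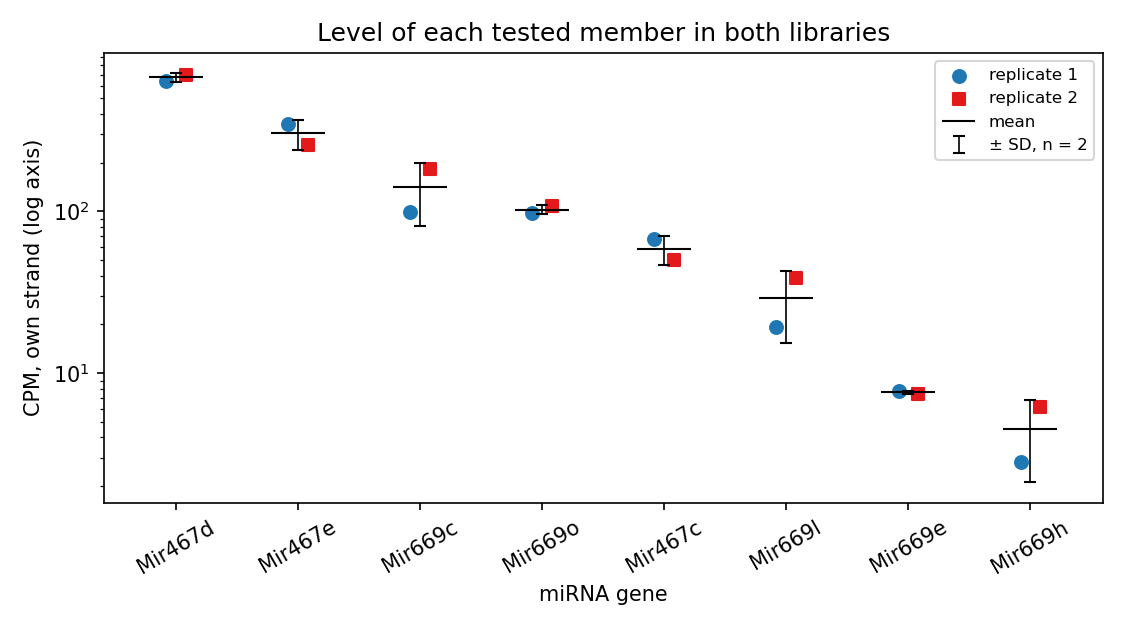
Level of the 8 members with at least 10 reads over both libraries, in CPM on the own strand (log axis). Circles are replicate 1, squares replicate 2, long bars the mean and whiskers ± SD (n = 2). In assigned reads Mir467d leads at 645 and 702 CPM, and among neighbours in level only the ranges of Mir669c and Mir669o overlap.

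Mir466 and Mir297 genes had next to no assigned reads. Of 28 Mir466 genes, 2 had any: Mir466n had 6 reads in replicate 1 and 1 in replicate 2, and Mir466 had 1 and 0. Of 6 Mir297 genes, Mir297a-2 had 1 read in replicate 1. Of these values, only that of Mir466n in replicate 1, 2.11 CPM, lay above the 1.05 CPM that a count of 0 allows there. All 8 copies of Mir466b, the member reported to act on StAR, were listed at 0 in both libraries. Of these 8 hairpins, 6 had no stretch of 20 bases that was not also in another counted hairpin. Reads that map to several places are kept in a row of their own in the files and counted for no gene. For these 6 copies a missing miRNA and an unassigned one cannot be told apart. Mir466b-2 and Mir466b-3 each had 20 such stretches of their own and were also at 0. Of its stretches, Mir466b-2 had 8 wholly 5′ of the hairpin's midpoint and 0 wholly 3′ of it, and Mir466b-3 had 0 and 10. For the side with 0 in each copy, a missing miRNA and an unassigned one cannot be told apart either. Whether the mature miR-466b overlaps the stretches of the other side was not determined, since no mature sequence of an array member was found. The counts of 0 therefore do not give the level of miR-466b.

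Which members had reads was set beside their position and hairpin sequence. Reads that map to several places count for no gene, so hairpins without sequence of their own could gain few reads by this rule. Windows of 20 bases were compared with all 2202 hairpins on both strands, and a window was called unique when no other hairpin held it. Each of the 11 members with reads had unique windows, 32.4% to 95% of their windows (median 52.0%). Of the 70 members at 0, 32 had none and 38 had some, 13.0% to 100% of their windows. All 32 members without a unique window lay in the array, and 26 of them had a hairpin identical to another. With windows of 18 bases the number without a unique window was again 32, a number that shorter windows could only keep or raise. Longer windows were not tried. Among the other 2121 genes, 306 (14.4%) had no unique window. Of those 306, 29 had reads (9.48%), against 40.9% of the 1815 with a unique window.

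A stretch of 29.7 kb between Mir467c and Mir467e held 38 members, and none had a read in either library. Its bounds are the nearest members with reads on each side, so this lack of reads follows from how the stretch was cut. Of these 38, 31 had no unique window, and the other 7 had at most 32.7%. This stretch carries all copies of Mir467a with their Mir466 and Mir669 neighbours. The 13 members up to and including Mir467c had 94.6 CPM in replicate 1 and 96.8 CPM in replicate 2, summed. The 20 members from Mir467e to the end had 1195 and 1258 CPM, which was 92.8% of the reads of the group over both libraries. The second of these sums was 12.6 times the first in replicate 1 and 13.0 times in replicate 2. Both sums rest on the same bounds, so they describe the array and test nothing about position.

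**Figure D2:**
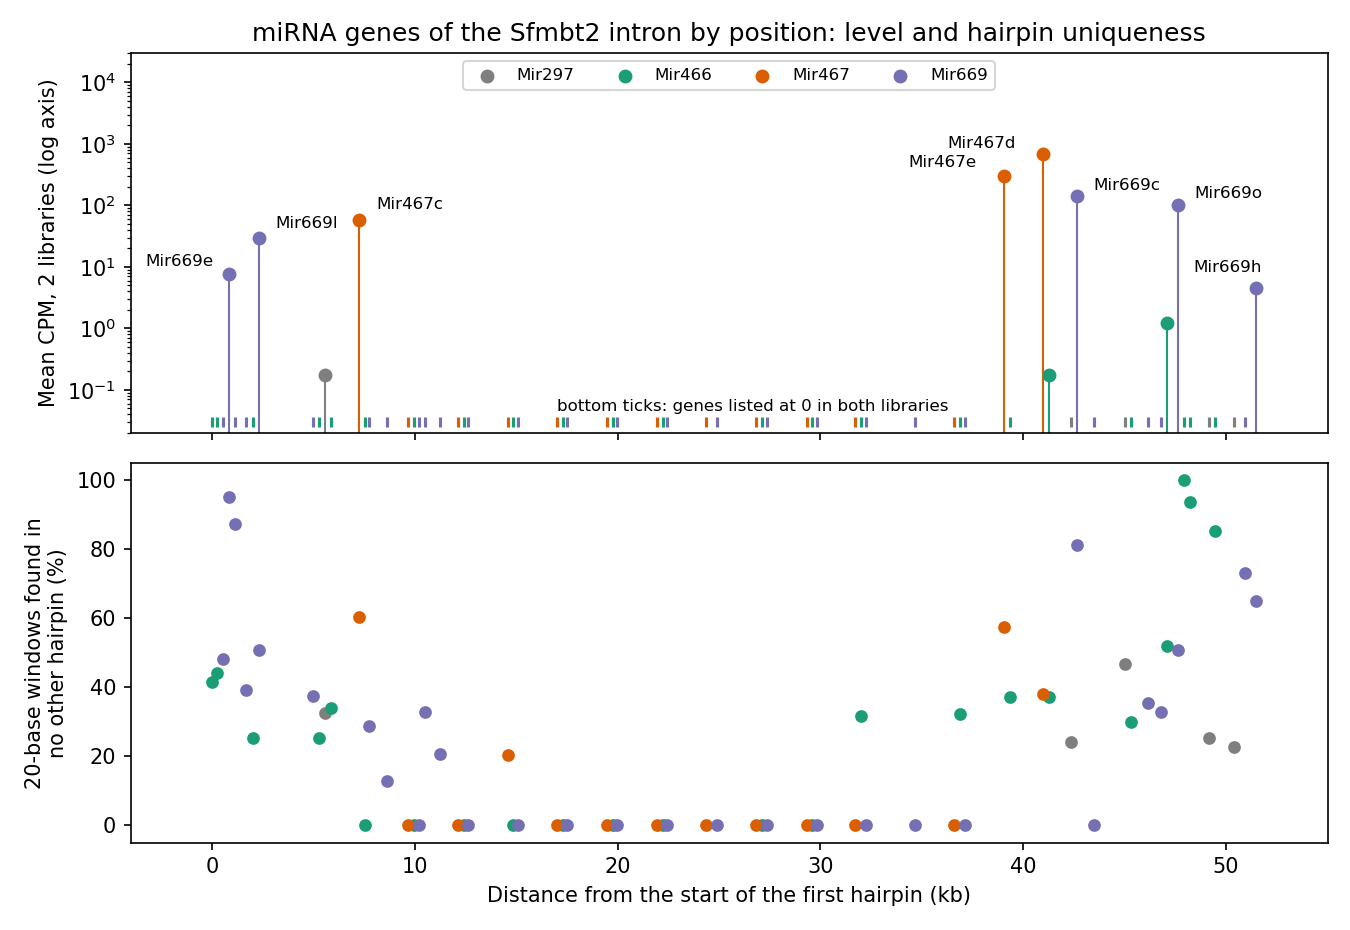
Members of the Sfmbt2 intron by distance from the start of the first hairpin (kb). The upper panel gives mean CPM of the 2 libraries (log axis), with bottom ticks for genes at 0, and the lower panel the percent of 20-base windows found in no other hairpin. The stretch of 38 members between Mir467c and Mir467e was bounded by the nearest members with reads, so it has no reads by choice of bounds. Of its members, 31 have no unique window.

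Some members with many unique windows had no reads. Mir466g had 100% unique windows, Mir466h 93.5%, Mir669b 87.2%, Mir466l 85.3% and Mir669i 73.1%, and all 5 were at 0. They were named after their values were seen. Mir467d, the member with the most assigned reads, had 37.9% unique windows. Of these, 19 lay wholly 5′ of the hairpin's midpoint and 6 wholly 3′ of it. Mir467e had 20 and 19 by the same count. Mir466n and Mir466 had 52.0% and 37.0%, with 7 reads and 1. The genome outside annotated hairpins was not searched, so a window called unique here may still occur elsewhere. Hairpin sequences were those of the mm10 annotation, and the CAST/EiJ alleles of these mice were not compared. Whether they change which reads could be assigned was not tested.

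The 10 members elsewhere were scattered over chromosomes 3, 5, 7, 9, 10, 11 and 13. Mir466q lies in an intron of Tnik, a kinase gene, and the other 9 had no host gene on their strand. All 10 had unique windows, 35.1% to 100% (median 70.0%). Mir467h had 0 of 42 unique windows 3′ of its midpoint, and its mature sequence, held by 3 hairpins, could not be assigned to it alone. The longest alternating UG or CA runs of the group were theirs, 28 bases in Mir466q and 23 in Mir466k and Mir466i, against at most 15 in the array. The GC content of the 81 hairpins had a median of 36.5%, against 50.8% over all 2202.

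Between the libraries, the total of the group was nearly level, while its members moved in different directions. Of 8 members with at least 10 reads, 5 differed by more than counting error (exact binomial test, Benjamini-Hochberg over 444 tested genes), against 59.0% of all tested genes. The members' count lies near that background. Of the 5, 3 were higher in replicate 2, a direction called for 28.6% of all tested genes, and 2 were lower, against 30.4%. The median log2 ratio of replicate 2 to replicate 1 was 0.13 over the 8 members and 0.07 over all tested genes, and the median size of the ratio was 0.42 and 0.56. This test compares 2 libraries and not conditions. With the spread between libraries included, the exact negative binomial test of edgeR called 0 of the 8 members, against 0.450% of all tested genes. At an unadjusted p under 0.05 it was again 0 of 8, against 24 of 444 tested genes (5.41%). That spread, a biological coefficient of variation of 0.393, was estimated from the same 2 libraries.

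Mir669c rose from 282 to 564 reads, a log2 ratio of 0.88 (95% counting interval 0.68 to 1.10), with an adjusted p of 2.3e-17 in the exact binomial test and 1.0 in the negative binomial test of edgeR. Mir669l went from 55 to 120 reads, a log2 ratio of 1.00 (0.54 to 1.5) with an adjusted p of 2.5e-05 in the exact binomial test. Mir467e fell from 989 to 799 reads, a log2 ratio of -0.42 (-0.56 to -0.29) with an adjusted p of 2.2e-09 in the exact binomial test. Mir467c had a log2 ratio of -0.42 (-0.73 to -0.10) and Mir467d one of 0.12 (0.03 to 0.21), both with an adjusted p of 0.015 in the exact binomial test. The call of Mir467d was lost with TMM factors (adjusted p of 0.309, exact binomial test) and without strand (0.426), and that of Mir467c with Mir122 left out of the totals (0.0787). Mir669o (0.14), Mir669h (1.08, from 8 and 19 reads) and Mir669e (-0.05) did not pass the test.

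Mir467d and Mir467e, whose hairpins lie next to each other in the Mir467 series, had ratios of opposite sign, and their counting intervals do not overlap. The Mir669 genes as a set took 17.6% of the group's reads in replicate 1 (95% exact binomial interval 16.4 to 18.9) and 25.3% in replicate 2 (24.0 to 26.7). Mir669c alone went from 7.69% to 13.5%. The sum of the group was 1290 and 1355 CPM. These intervals cover counting error only, by which 59.0% of all tested genes also differed.

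**Figure D3:**
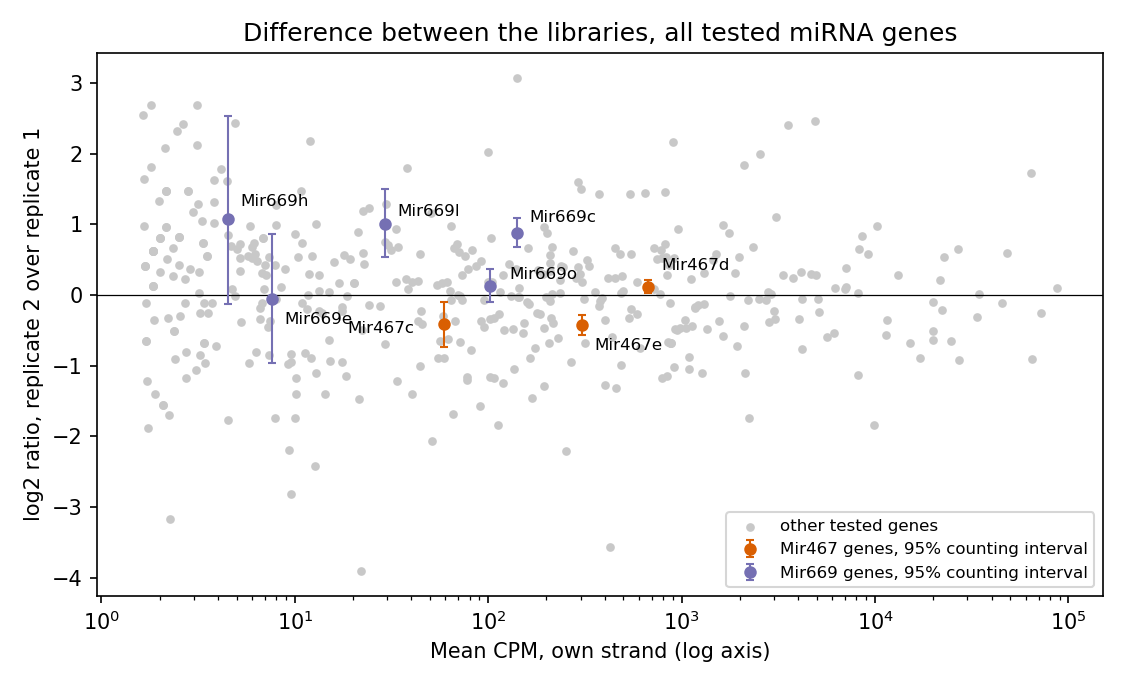
Log2 ratio of replicate 2 over replicate 1 against mean CPM (log axis) for the 444 tested genes. Grey points are other genes, and coloured points with 95% counting intervals are the 8 members, which lie from -0.42 to 1.08 inside the cloud of the other genes.

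Markers of other cell types also differed between the libraries. Mir122, the main miRNA of hepatocytes, had 29424 CPM in replicate 1 and 97850 CPM in replicate 2. The 5 striated muscle markers summed to 921 and 3311 CPM in assigned reads, nearly all Mir206. The listed Mir1a and Mir133 genes had at most 4.55 CPM, but reads mapping to several places count for no gene. Whether such reads came from these genes was not tested. The endothelial Mir126a had 84263 and 45250 CPM. Of the 3 red cell names 1 matched, Mir451a at 567 and 234 CPM, and of the 3 leukocyte markers Mir150 had 292 and 786 CPM, Mir142 390 and 368 CPM and Mir223 144 and 141 CPM. The 3 neuroendocrine markers, which include Mir375, summed to 39806 and 37748 CPM, and Mir375 alone had 34145 and 34383 CPM. The other markers of that list, Mir7b at 5272 and 3120 CPM and Mir7-1 at 390 and 244 CPM, were lower in replicate 2 by the exact binomial test. Markers of embryonic stem cells and early trophoblast, where the Sfmbt2 array is best known, were matched for 5 of 6 names, with none at 0 in both libraries. Their sum was 183 CPM in the first library and 82.1 CPM in the second. Nearly all of it was Mir293 (76.3 and 41.2 CPM) and Mir294 (100 and 31.2 CPM). Both were lower in replicate 2 by the exact binomial test, 2 of 3 tested, against 30.4% of all tested genes. Mir291a, also tested, had 4.92 and 7.14 CPM and did not pass. Mir290a (0 and 1.62 CPM) and Mir295 (1.76 and 0.974 CPM) had too few reads to be tested. The array went from 1290 to 1355 CPM over the same libraries. The part of these markers in the members' ratios was not tested. In whole tissue, fewer cells of a type and less RNA per cell cannot be told apart.

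In uniquely assigned reads, most listed miRNAs of other imprinted loci had higher levels than Mir467d. Of the 71 array members, 32 had no unique window, and reads mapping to several places, 27.5% and 25.9% of all reads, count for no gene, so the level of the whole array is not given by this comparison. Of 15 such genes, from Dlk1-Dio3, Mest, Igf2-H19 and Gnas, all 15 reached 1 CPM in both libraries and 11 had a higher mean than Mir467d. Mir335, from the Mest locus, had 20025 ± 6103 CPM (SD, n = 2) and Mir127, from Dlk1-Dio3, 19968 ± 989 CPM, while Mir675 of H19 had 11.8 ± 1.72 CPM. By the exact binomial test 6 of the 15 were higher in replicate 2 and 6 lower, against 28.6% and 30.4% of all tested genes. Their summed level in assigned reads exceeded that of the array in each library, 76660 CPM in replicate 1 and 73313 CPM in replicate 2. Which parental allele the array reads came from was not analysed here, since the counts are not split by allele.

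Other miRNAs reported by others to act on StAR, on the lipoprotein receptor gene Scarb1 or on steroid output had assigned reads where Mir466b had none. Of the 8 Mir466b hairpins, 6 had no unique window, and in the other 2 the place of the mature sequence was not determined. The level of miR-466b is thus not given by this comparison. All 9 listed genes reached 1 CPM in both libraries, and 4 had a higher mean than Mir467d in assigned reads. The list holds more than 1 copy of Mir24 and of Mir138, and reads mapping to several places count for none of them. Mir21a had 6869 CPM in replicate 1 and 13582 CPM in replicate 2, Mir125a 5157 and 4943 CPM, and Mir132 647 and 933 CPM. Mir138-1 had 184 and 233 CPM. Of the 9, 6 were higher and 3 lower in replicate 2 by the exact binomial test, beside the same 28.6% and 30.4%. Mir467d thus lay between Mir132 and Mir138-1 by mean.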

How the data were processed

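The authors deposited raw counts of reads per miRNA gene for each library, with mm10 as build and GENCODE M21 as gene set, according to the descriptions of the files. For the aligner and the counting tool, the name is "not given in the sources used here". The 3 count columns were read from their values as without strand, own strand and opposite strand, and 4 special rows, left out of totals. Of all reads, 27.5% in replicate 1 and 25.9% in replicate 2 mapped to several places, and 26.4% and 32.0% were unmapped. All 2202 identifiers matched the annotation.

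Own-strand counts were scaled to CPM over gene rows. Where the libraries held 10 counts or more together, a gene's split was set against the ratio of totals (exact binomial test, two-sided), with Benjamini-Hochberg adjustment at 0.05. A quasi-likelihood fit needs a second group. Log2 ratios added 0.5 counts. Intervals are 95% Clopper-Pearson, and a count of 0 was read as up to 3 counts. P-values cover counting error between 2 libraries. The test was checked on simulated counts with 200 changed genes. These held counting error only, so the check does not cover the spread between libraries. Hairpin sequences came from GENCODE M21 transcripts.

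Members with at least 10 counts were named by rule, and members below that were named after their values were seen or as copies of Mir466b, hosts or holders of a printed sequence. Members and lists were chosen with earlier results of these data known. Alternatives were other columns, denominators, minimums, TMM and DESeq2 factors, pseudocounts and edgeR's negative binomial test. Python 3.11.15 was used with scipy 1.17.1, pandas 2.3.3, numpy 2.4.6 and matplotlib 3.10.9, and R 4.3.3 with DESeq2 1.42.0 and edgeR 4.0.16.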

Additional observations from a re-analysis of the deposited data

Results flagged for a closer look

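Reads that map to several places lay in a row that no comparison used. They made up 27.5% of all reads in replicate 1 and 25.9% in replicate 2. The row is not split by gene, so how many came from the Sfmbt2 array was not tested.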

How the results depend on the processing

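The share of the group, which is also that of its Sfmbt2 array, was 0.163% without strand, 0.0479% of all reads, and 0.142% with Mir122 left out of the totals, an alternative chosen after seeing the data, against 0.132%. These moves follow from the denominators, since the reads of the members stay the same. Single libraries gave 0.129% to 0.136%. Members at 1 CPM numbered 8 to 9 in single libraries, and 7 had 10 counts in each. Of the tested members, 5 of 11 differed with a minimum of 1 count (all genes 255 of 783), 5 of 6 with 100 counts (229 of 285), 5 of 8 with DESeq2 factors (255 of 444), and 4 of 8 with TMM factors (262 of 444), without strand (238 of 417) and without Mir122 (252 of 443). Of the 8, 0 differed in the negative binomial test, which allows for the spread between libraries, against 2 of 444 tested genes. That spread was estimated from the same 2 libraries that the test compares, which leaves room for few calls. Of 40 alternatives of single ratios, 36 kept direction and call and 3 lost the call. Those with a pseudocount of 5 counts could change the ratio but not the call, since the test does not use it. Mir669e had a log2 ratio of 0.053 in place of -0.05 with Mir122 left out of the totals, which shifts every log2 ratio by 0.11. No paired analysis was possible because there is 1 group. Depth limits Mir669e, Mir669h and all members with fewer reads.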
